A study of Homo sapiens with 6 samples.

Results

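The translation initiation and elongation factors are the proteins that load ribosomes onto mRNA and move them along it. They were taken here as the protein-coding genes whose symbols start with EIF1 to EIF6 or with EEF1 or EEF2, without the kinases, methyltransferases and transporter that share those letters (symbols starting with EIF2AK, EIF4ENIF, EEF1AKMT, EEF2K and EEF2KMT). This gave 59 of the 58735 genes in the count table, 51 with EIF names and 8 with EEF names. The libraries came from HepaRG, a human liver progenitor line that forms hepatocyte-like and biliary-like cells when differentiated. All 6 samples shared the same background: 2 weeks of differentiation in 1.8% DMSO, 48 h of siRNA transfection, and 24 h with fatty acids, of which palmitic acid was at 400 µM and oleic acid at 800 µM. The siRNAs named in the protocols target STAT3, PTPRD or neither (a control siRNA). The 2 groups compared are labelled PTPF and STATF, with 3 libraries each, and the labels do not spell these names out. No library without fatty acids and none with the control siRNA was analysed here, so each difference is one between the 2 siRNA labels in fat-loaded cells. Whether replicates were grown separately is not stated, and the p-values cover only the variation among these libraries, which could be technical.

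Initiation starts when the trimeric eIF2 brings the initiator tRNA to the small ribosomal subunit, helped by eIF1, eIF1A, eIF3 and eIF5, and when eIF4F (the cap binder eIF4E, the scaffold eIF4G and the helicase eIF4A) recruits that complex to the mRNA cap. During elongation eEF1A delivers each aminoacyl-tRNA, the eEF1B subunits recharge eEF1A with GTP, and eEF2 moves the ribosome forward. Both arms are regulated: kinases phosphorylate eIF2 and eEF2 under stress, and mTORC1 phosphorylates the 4E-BP repressors, which otherwise sequester eIF4E. The mRNAs of many elongation factors and of some initiation factors begin with a C followed by a run of pyrimidines (C or T in the DNA), the 5′ terminal oligopyrimidine (TOP) motif, through which mTORC1 controls their translation.

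The start-site sequences of some members are shown because this motif is a known feature of translation factor mRNAs. Each line holds 15 bases before and 15 bases from the RefSeq start of the gene (GRCh38.p14, sense strand, 5′ to 3′), and capitals mark a C at the start with the pyrimidines that follow it without a break. The first 6 have at least 4 pyrimidines after that C, and the last 4 do not. The last 4 were picked from genes that differed between the labels, and of the first 6 EEF1B2 differed too.
EEF1A1 (chr6:73521018-73521047, minus strand): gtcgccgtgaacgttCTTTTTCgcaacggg
EEF1B2 (chr2:206159880-206159909, plus strand): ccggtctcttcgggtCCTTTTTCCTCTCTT
EEF2 (chr19:3985449-3985478, minus strand): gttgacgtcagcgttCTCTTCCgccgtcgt
EIF4B (chr12:53006441-53006470, plus strand): ttgcctcatccgggtCTTTTgcgttctctt
EIF3F (chr11:7987322-7987351, plus strand): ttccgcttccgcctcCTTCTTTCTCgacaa
EIF2S3 (chrX:24054941-24054970, plus strand): ggggtgatttccttcCTCTTTTggcaacat
EIF1AX (chrX:20141824-20141853, minus strand): gcaaagagtcgcggcgccatttgctgccgc
EIF2S1 (chr14:67360313-67360342, plus strand): gcgaggaggttccgcatgcgcggtggagtg
EIF5B (chr2:99337374-99337403, plus strand): gcgcactgagaactcacaccatatgtgtcc
EIF4EBP2 (chr10:70404130-70404159, plus strand): ctcccgccttcgcccgcttccggtcgtcgt
Of the 59 members 49 had a start in the table, and 13 of these (26.5%) had such a run, against 947 of 14896 protein-coding genes (6.36%). By name the run was present in 3 of 6 genes with EEF names and 10 of 43 with EIF names. EEF1B2 has a second annotated start without it. Annotated starts were not measured here, and a match is a description of letters at a listed position.

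The knockdown labels were checked first. STAT3 stood at 443 ± 12.2 CPM (counts scaled to library size with TMM factors; mean ± SD, n = 3) in the libraries labelled PTPF and at 119.6 ± 10.6 in those labelled STATF, a log2 difference of 1.89 (edgeR's quasi-likelihood test, adjusted p = 2.47e-18). PTPRD did not separate the labels, at 11.5 ± 1.37 and 11.5 ± 0.603 CPM (log2 difference 0.00, 95% interval -0.19 to 0.19, adjusted p = 0.999), so groups are named by label throughout. Positive log2 fold changes mean higher in PTPF-labelled libraries. Total counts ran from 33225627 to 40796767 per library, and mitochondrial genes took 17.6% to 18.5% of them under PTPF and 18.7% to 19.5% under STATF. Hepatocyte markers were abundant (8 of 8 tested; summed level 41952 to 48650 CPM under PTPF, 39546 to 40390 CPM under STATF; 2 higher, 3 lower). The higher ones were SERPINA1 (23741 against 14464 CPM), which makes up much of the sum, and ASGR1. ALB (12006 against 14867 CPM), TF and APOA1 were lower, and 6 of the 8 fold changes were below 0. The higher sum under PTPF does not hold for most of these markers. Of the 5 biliary markers 4 were tested and EPCAM had no count. They summed to 264.5 to 298 CPM under PTPF and 246 to 266 CPM under STATF (1 higher, 2 lower). CD24, the higher one (185 against 120.5 CPM), makes up much of that sum. KRT19 (75.7 against 112.7 CPM) and SOX9 were lower, and 3 of the 4 fold changes were below 0. The 5 endothelial and immune markers summed to 0.551 to 1.199 CPM under PTPF and 1.08 to 1.60 CPM under STATF, with CD3E at 0, and the 4 mesenchymal markers to 24.7 to 42.9 CPM and 21.1 to 39.4 CPM. Apart from a fit with mitochondrial genes left out, given below, the part of the mitochondrial share and of the marker differences in the results was not tested. In bulk RNA, fewer cells of a type and less RNA per cell cannot be told apart.

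Translation factor mRNAs differed little between the labels. The share of them that passed the test was near that of all genes, and below that of abundant protein-coding genes. Of the 59 members 54 passed the low-count filter, and 11 of these (20.4%) had an adjusted p under 0.05, against 21.6% of all 17844 genes tested and 25.5% of the protein-coding ones. Among protein-coding genes with a mean of at least 10 CPM it was 31.2%, though not all members reach that level. The count of called members in either direction is therefore no result about translation factors. Higher under PTPF were 16.7% of the members, against 10.1% of all genes tested and 14.9% of protein-coding genes with a mean of at least 10 CPM. These were 9 genes, namely EEF1B2, EIF1AX, EEF1D, EIF2S1, EIF4EBP1, EIF4A3, EIF3J, EIF2S2 and EIF5B. Lower were 3.70% of the members, the 2 genes EIF4E3 and EIF4EBP2. This compares with 11.6% of all genes tested and 16.3% of protein-coding genes with a mean of at least 10 CPM. The called differences were 1.11-fold to 1.27-fold. Without an adjustment 19 members had p under 0.05. The 3 PTPF-labelled libraries all lay above the 3 STATF-labelled ones for 18 members (33.3%) and below them for 3 (5.56%). Above were 17.3% of all tested genes and 22.5% of protein-coding genes with a mean of at least 10 CPM. Below were 18.4% and 23.2%.

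**Figure D1:**
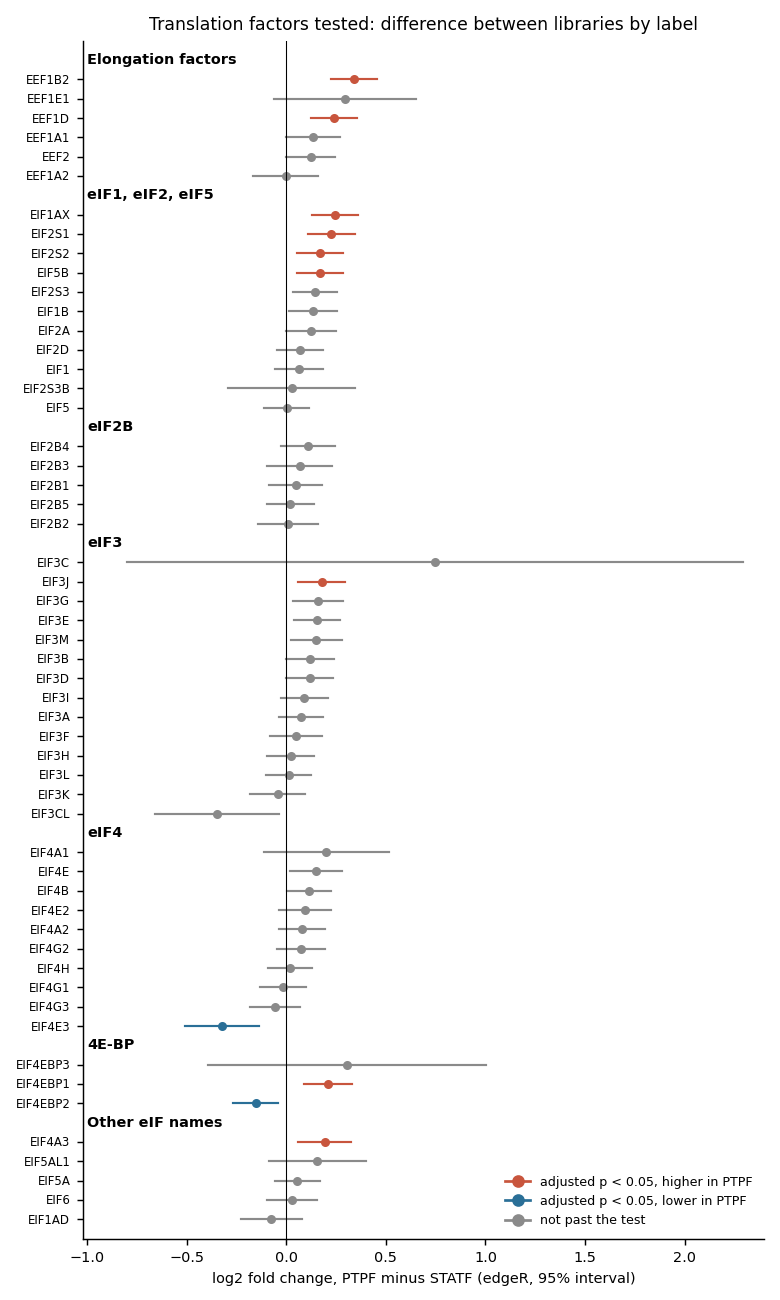
The log2 fold change of each of the 54 tested members (horizontal axis, PTPF minus STATF, edgeR; points, with 95% intervals as bars) is shown by role. Most points lie slightly above 0, 9 are past the test on the higher side and 2 on the lower side, and EIF3C has the widest interval.

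The differences had one sign more often than those of all genes, at a small size. The fold change was above 0 for 46 of 54 members (85.2%), against 50.3% of all genes tested, and its median was 0.10 against 0.00. EIF names had a median of 0.09 with 41 of 48 above 0, and EEF names a median of 0.19 with 5 of 6 above 0. No test compares these medians. The size depended on single libraries. PTPF replicate 1 was the highest of the 6 for 33 members (61.1%; 20.8% of all genes), and STATF replicate 1 was the lowest for 25 (46.3%; 18.5% of all genes). The shares of all genes are not like for like, since a smaller part of those genes lay above 0. Without PTPF replicate 1, 39 of 54 members lay above 0 and the median was 0.07. That library also had the lowest TMM scaling factor, 0.953 against 0.983 to 1.03 in the others. With library totals in place of TMM, 35 of 54 members lay above 0, their median was 0.04 and that of all genes -0.06, and 28.1% of all called genes were higher under PTPF in place of 46.6%. The members' median exceeded that of all genes by 0.10 under both scalings, by 0.06 without PTPF replicate 1 and by 0.13 without PTPF replicate 2.

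The elongation factors EEF1A1 and EEF2 came first in abundance, while EEF1D, EEF1A2 and EEF1E1 ranked 37, 43 and 50 of 54. The deposited length equals all annotated exon bases, such as 9390 for EEF1D and 14067 for EIF4E, so ranks depend on it. Per gene length, EEF1A1, which delivers aminoacyl-tRNA, stood at 966 RPKM (TMM-scaled CPM divided by the deposited gene length in kilobases; mean of the 6 libraries), and EEF2, the translocase, at 496 RPKM. The most abundant initiation genes were EIF1, a start codon fidelity factor, at 120.9 RPKM and EIF4G2, an eIF4G relative that lacks the eIF4E-binding part, at 97.4 RPKM. EEF1B2, the nucleotide exchange subunit of eEF1B, followed at 86.5 RPKM, then EIF5A at 74.8 and EIF4G1 at 72.0 RPKM. The neighbours EIF5A and EIF4G1 did not differ beyond their spread under STATF (73.3 ± 0.345 and 72.4 ± 2.25 RPKM), and under PTPF they were apart by a little more than 1 SD (76.2 ± 3.63 and 71.6 ± 1.12 RPKM). At the low end of the tested genes, EIF4A1, the eIF4F helicase, was listed at 0.781 RPKM. All members together took 1.46% ± 0.0276 of the counts under PTPF and 1.42% ± 0.0205 under STATF.

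**Figure D2:**
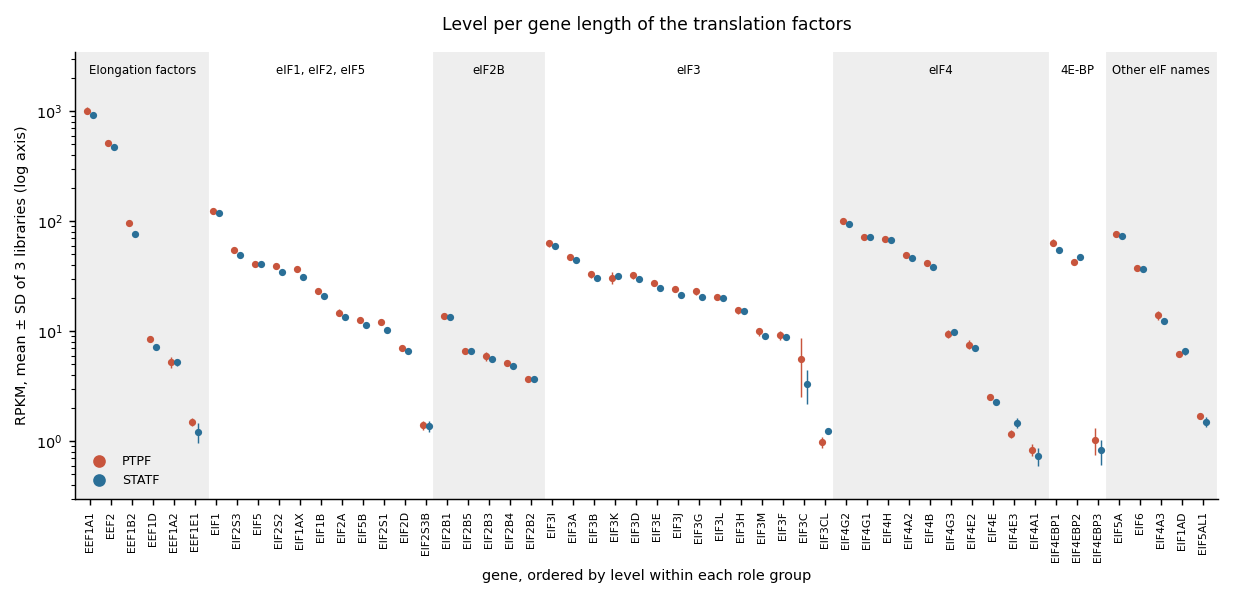
The level per gene length (vertical axis, RPKM on a log axis; points are means and bars SDs of 3 libraries) is shown for each tested member, in order of level within its role group, with PTPF-labelled libraries in red and STATF-labelled ones in blue. The label means span from below 1 RPKM (EIF4A1) to 1011 RPKM (EEF1A1 under PTPF), and the colours lie close together for most genes but not for EIF3C (5.59 ± 3.09 and 3.30 ± 1.14 RPKM).

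Of the 6 tested elongation genes 2 (33.3%) were higher under PTPF and none lower. Higher were 10.1% of all genes tested and 14.9% of protein-coding genes with a mean of at least 10 CPM. Both genes encode subunits of the eEF1B exchange complex, whose gamma subunit gene, EEF1G, held no count. EEF1B2 read 192.5, 179.8 and 183.5 CPM in PTPF replicates 1 to 3 and 139.3, 146.8 and 152.5 CPM in STATF replicates 1 to 3. All PTPF values were above all STATF values, at 185 ± 6.54 against 146 ± 6.60 CPM. This was the largest called difference, 1.27-fold (log2 0.34, SE 0.06, adjusted p = 3.83e-05). The gene lies on chromosome 2 (206159585 to 206162928, plus strand, GRCh38), and 17.4% of its exon bases are shared with other annotated genes, mostly small nucleolar and other short RNAs that held no count. EEF1D, which encodes the delta exchange subunit, read 80.4, 76.1 and 84.4 CPM against 67.0, 68.5 and 68.4 CPM, again without overlap. Its means were 80.3 ± 4.16 and 68.0 ± 0.863 CPM (log2 fold change 0.24, SE 0.06, adjusted p = 0.00224). Other genes share 34.0% of its exon bases, of which AC067930.6, a gene on the opposite strand with 35 counts in all, covers 31.2% of the exon bases.

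EEF1A1 and EEF2, which carry most of the elongation reads, did not pass the test. EEF1A1 read 6521, 5762 and 5758 CPM under PTPF and 5419, 5573 and 5445 CPM under STATF. The groups did not overlap, but the first PTPF library stood well above the other 2 (6014 ± 439 against 5479 ± 82.1 CPM; log2 fold change 0.13, 95% interval -0.00 to 0.27, adjusted p = 0.166). Without that library the fold change of EEF1A1 was 0.07. EEF2 read 2090.0, 2000.4 and 2159 CPM against 1926, 1937 and 1877 CPM, also without overlap, and gave 0.12 (95% interval -0.00 to 0.25, adjusted p = 0.164). These intervals allow at most a 1.21-fold and a 1.19-fold higher level under PTPF. EEF1A2, the eEF1A form of muscle and neurons, was low at 29.01, 23.1 and 25.1 CPM against 25.6, 27.6 and 23.9 CPM, with overlapping groups (log2 fold change -0.00, 95% interval -0.17 to 0.16, adjusted p = 0.991). EEF1E1, a scaffold protein of the aminoacyl-tRNA synthetase complex that carries an EEF name, had 3.46, 2.92 and 3.09 CPM against 1.97, 2.71 and 3.02 CPM, with overlap (0.29, SE 0.17, adjusted p = 0.257).

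Because EEF1A1 makes up 70.1% to 73.1% of the summed elongation CPM, the class sum follows that gene. The elongation sum was 8391 ± 462 CPM under PTPF and 7635 ± 104 CPM under STATF, 9.90% higher. The initiation sum was 6605 ± 171 against 6307 ± 85.2 CPM, 4.73% higher. The ratio of elongation to initiation was 1.31, 1.24 and 1.26 in PTPF replicates 1 to 3 and 1.21 in each STATF replicate, so the groups did not overlap but the first PTPF library stood apart from the other 2. With 3 libraries per label an exact permutation test cannot give a p below 0.1, and none is given for sums over members.

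EEF1G, the gamma subunit of eEF1B, held no count in any of the 6 libraries, which allows up to 0.0720 to 0.0919 CPM per library (3 counts, counting error only). Of its exon bases 99.9% are shared with another protein-coding gene on the same strand, AP002990.1, which held 288 counts in all. EEF1E1-BLOC1S5, a readthrough gene with all its exon bases shared, and EIF4E1B, an eIF4E form of oocytes, had no count either. EIF5A2, a second eIF5A gene, had 4 counts in PTPF replicate 2 and none elsewhere. EIF1AY was the remaining member below the filter. A level of 0 for EEF1G therefore says what the table lists for that row, and the expression of the gene was not measurable from it.

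The genes of the eIF2 ternary complex, start codon recognition and subunit joining, grouped here with EIF2A and EIF2D, held 4 of the 11 calls. Of the 11 tested members of this group 4 (36.4%) were higher and none lower, against 21.6% of all genes called in either direction. Of protein-coding genes with a mean of at least 10 CPM 31.2% were called in either direction. All 11 had fold changes above 0 as fitted (50.3% of all genes; range 0.00 to 0.25, median 0.13), but only 9 did with library totals, without PTPF replicate 1 or without STATF replicate 1, since EIF5 and EIF2S3B lay near 0 and turned. EIF1AX, which encodes eIF1A, a scanning factor, read 162, 169 and 161 CPM under PTPF and 133, 135 and 148 CPM under STATF. The 3 PTPF values were close together and all higher (164 ± 4.20 against 138 ± 7.98 CPM; log2 fold change 0.25, SE 0.06, adjusted p = 0.00184). It lies on chromosome X (20124518 to 20141844, minus strand), and its 2 annotated pseudogenes held 2851 counts, 8.66% of its own, so reads could be split among near-identical copies.

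Of the 3 subunits of eIF2, alpha and beta passed the test and gamma did not. EIF2S1 (alpha, the subunit that stress kinases phosphorylate) read 72.0, 69.1 and 64.4 CPM against 57.7, 58.3 and 59.8 CPM. The groups did not overlap, and the STATF libraries differed by little (68.5 ± 3.83 against 58.6 ± 1.09 CPM; log2 fold change 0.23, SE 0.06, adjusted p = 0.00468). EIF2S2 (beta) read 110.0, 103 and 97.7 CPM against 91.5, 91.8 and 92.8 CPM (0.17, SE 0.06, adjusted p = 0.0289). EIF2S3 (gamma, which binds the initiator tRNA) read 196, 187 and 187 CPM against 171, 177 and 168 CPM, with no overlap but without passing the test (0.14, SE 0.05, adjusted p = 0.0556). EIF5B, the GTPase of subunit joining, read 101, 104.7 and 95.1 CPM against 86.7, 90.9 and 90.1 CPM, again with all PTPF values higher (0.17, SE 0.06, adjusted p = 0.0281). The calls of EIF2S2 and EIF5B were borderline. EIF2S2 lost its call without PTPF replicate 1 (adjusted p = 0.0851) or without STATF replicate 1, 2 or 3 (0.0995, 0.104 and 0.0763). EIF5B lost its call without PTPF replicate 2 (adjusted p = 0.0834) or without STATF replicate 1, 2 or 3 (0.134, 0.0711 and 0.0717). The remaining genes of the group, EIF1, EIF1B, EIF2A, EIF2D, EIF2S3B and EIF5, gave 0.00 to 0.13 and did not pass.

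The 5 genes of eIF2B, the exchange factor that recharges eIF2 with GTP and is the target of phosphorylated eIF2, did not pass the test. Their fold changes ran from 0.01 (EIF2B2) to 0.11 (EIF2B4), with a median of 0.05, and 3 of the 5 (EIF2B1, EIF2B2 and EIF2B5) lay below 0 with library totals. EIF2B4, the delta subunit, had PTPF values that all lay above the STATF values (27.7 ± 0.954 against 25.7 ± 0.551 CPM), and the other 4 overlapped.

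Of the 14 eIF3 genes, which encode the scaffold that holds the initiation complex on the small subunit, 1 passed the test. This was 7.14%, against 21.6% of all genes tested. EIF3J, a loosely bound subunit that takes part in mRNA entry and ribosome recycling, read 78.0, 76.4 and 76.4 CPM under PTPF and 63.0, 69.8 and 71.0 CPM under STATF. The PTPF libraries were nearly equal and all higher (log2 fold change 0.18, SE 0.06, adjusted p = 0.0251), and the first STATF library was the lowest. Without it the fold change was 0.13 (adjusted p = 0.199), and the call was also lost without PTPF replicate 3 (0.0597) or STATF replicate 2 (0.0522). EIF3E, whose mRNA is a textbook TOP mRNA, gave 0.15 (adjusted p = 0.0531), with no overlap between groups. The median of the eIF3 genes was 0.10.

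EIF3C and EIF3CL, near-identical copies on chromosome 16, had the highest and the lowest fold change of all members, and neither passed. EIF3C held 1323, 623 and 1960 counts under PTPF and 708, 1343 and 676 under STATF. The PTPF libraries alone spanned 17.0 to 60.04 CPM, a wider gap than that between the means of 39.1 and 23.1 CPM, and the fold change of 0.75 had a 95% interval from -0.80 to 2.30 (adjusted p = 0.466). EIF3CL stood at 3.37, 3.02 and 2.67 CPM against 3.89, 4.06 and 3.58 CPM (-0.35, adjusted p = 0.105). Counts of both are uncertain, since reads that match both copies may be split or dropped.

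Among the 10 tested genes of cap binding, scaffolding and unwinding, 1 (10%) was lower under PTPF and none higher, against 21.6% of all genes called. EIF4E3, an eIF4E relative that binds the cap weakly, read 13.7, 12.8 and 11.4 CPM under PTPF and 15.2, 14.5 and 17.7 CPM under STATF. All PTPF values were lower (12.6 ± 1.12 against 15.8 ± 1.65 CPM; log2 fold change -0.32, SE 0.09, adjusted p = 0.00995), with the extremes in the third library of each label. Without PTPF replicate 3 the adjusted p was 0.0774 (fold change -0.26), and without STATF replicate 3 it was 0.105 (-0.23). EIF4E, the main cap-binding protein, read 37.7, 33.7 and 35.8 CPM against 31.4, 32.2 and 32.8 CPM. The groups did not overlap, yet the test was not passed (0.15, SE 0.06, adjusted p = 0.0953), except without PTPF replicate 2 (0.20, adjusted p = 0.0356). The ratio of EIF4E3 to EIF4E counts was 0.362, 0.381 and 0.319 under PTPF and 0.485, 0.450 and 0.539 under STATF.

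The eIF4G scaffold and the helicase gave no call. EIF4G1 stood at 591 ± 9.21 against 598 ± 18.5 CPM (log2 fold change -0.02, adjusted p = 0.884), with a 95% interval from 0.913-fold to 1.07-fold. EIF4A2, the second eIF4A gene, was counted at 293 to 316 CPM under PTPF and 272 to 295 CPM under STATF (0.08) and did not pass. EIF4A1 held only 909 counts over the 6 libraries, with 3.85, 4.82 and 4.66 CPM against 3.12, 4.54 and 3.93 CPM (0.20, SE 0.15, adjusted p = 0.399). Of its exon bases 48.6% are shared with other annotated genes, among them a readthrough gene with SENP3, and its 13 annotated pseudogenes held 1986 counts, more than the gene itself. Its listed level is therefore uncertain, and the counting rule for reads on shared bases was not known.

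The 4E-BP genes, which encode repressors that bind eIF4E and block its contact with eIF4G, gave 1 higher and 1 lower call. This was 66.7% of only 3 tested genes, against 21.6% of all genes tested. EIF4EBP1 read 74.0, 67.0 and 65.1 CPM under PTPF and 59.7, 59.6 and 58.6 CPM under STATF. The STATF libraries were nearly equal and all lower (68.7 ± 4.72 against 59.3 ± 0.624 CPM; log2 fold change 0.21, SE 0.06, adjusted p = 0.00919). EIF4EBP2, the more abundant of the pair by CPM, read 304, 308 and 320.3 CPM against 344, 345 and 346 CPM. It went the other way, again with no overlap (311 ± 8.65 against 345 ± 0.953 CPM; -0.15, SE 0.05, adjusted p = 0.0434). This is the weakest of the 11 calls, lost on leaving out any 1 of the 6 libraries (adjusted p from 0.0518 without PTPF replicate 1 to 0.149 without STATF replicate 2). The ratio of EIF4EBP1 to EIF4EBP2 counts was 0.244, 0.218 and 0.203 in PTPF replicates 1 to 3. In STATF replicates 1 to 3 it was 0.173, 0.173 and 0.169, so the groups did not overlap. These counts are not divided by gene length. Per gene length the order of the pair was reversed, at 59.7 RPKM for EIF4EBP1 and 45.2 RPKM for EIF4EBP2 (mean of the 6 libraries). EIF4EBP3 held 139 counts in all, shares 73.4% of its exon bases with the readthrough gene ANKHD1-EIF4EBP3, and gave 0.31 (SE 0.34, adjusted p = 0.588).

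**Figure D3:**
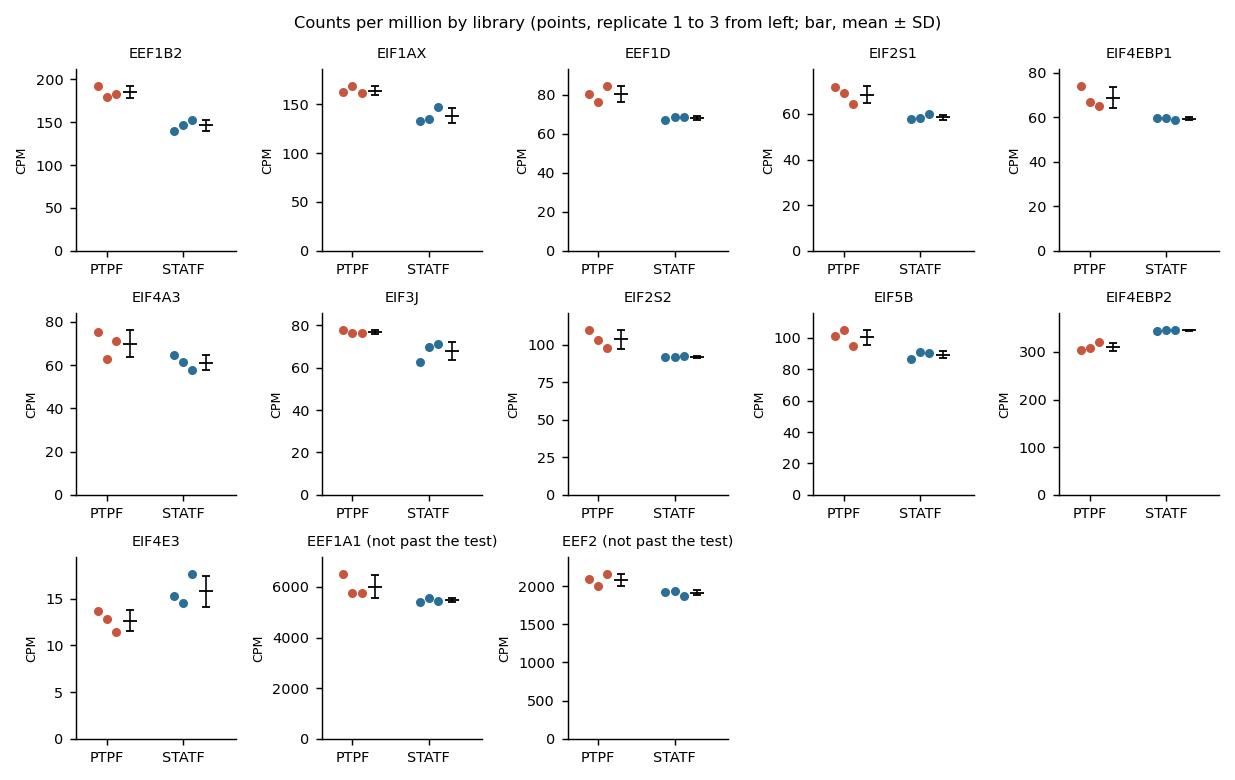
The level in each library (vertical axes from 0, CPM scaled by TMM; points are libraries, bars mean ± SD of 3) is shown for the 11 members past the test and for EEF1A1 and EEF2, which were not. Except for EIF4A3, whose lowest PTPF value (62.9) is below the highest STATF value (64.6), no panel has overlapping groups.

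The members named eIF that act outside initiation gave 1 call of 5 (20%, against 21.6% of all genes tested). EIF4A3, the helicase of the exon junction complex, read 75.5, 62.9 and 71.3 CPM under PTPF and 64.6, 61.2 and 57.6 CPM under STATF. Its groups overlapped (log2 fold change 0.19, SE 0.06, adjusted p = 0.0333). The call was lost without PTPF replicate 1 (adjusted p = 0.125), PTPF replicate 3 (0.111), STATF replicate 2 (0.0927) or STATF replicate 3 (0.186). EIF5A, the hypusine-bearing factor that helps ribosomes through difficult peptide bonds, stood at 215 ± 10.21 against 206 ± 0.971 CPM (0.06, adjusted p = 0.538). EIF6, which keeps the large ribosomal subunit from joining early, was at 61.3 ± 4.11 against 60.1 ± 2.73 CPM (0.03, adjusted p = 0.80). The 95% intervals were 0.961-fold to 1.12-fold for EIF5A and 0.936-fold to 1.11-fold for EIF6.

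Genes with a TOP-like start were read against those without. Of the 13 tested members with the run at an annotated start 1 was higher (EEF1B2) and none lower, with a median of 0.12 and 12 of 13 above 0. Among the 31 tested members without it 5 were higher and 2 lower, with a median of 0.09 and 26 of 31 (83.9%) above 0, against 92.3% of those with it. Of all genes tested 10.1% were higher. The 10 members without a start in the table are in neither set. EEF1D, EIF2S2 and EIF4EBP1, all higher, are among these, so the counts of higher genes depend on which starts were listed. The windows printed for EIF1AX, EIF2S1 and EIF5B hold no such run, although these genes were among the higher ones. Of the 8 tested members whose mRNAs are textbook TOP mRNAs 2 (25%) were higher, EEF1B2 and EEF1D. Higher were 10.1% of all genes tested and 14.9% of protein-coding genes with a mean of at least 10 CPM. All 8 had a fold change above 0 as fitted (0.02 to 0.34, median 0.13). Only 6 did with library totals or without PTPF replicate 1, where EIF3F and EIF3H lay below 0. mRNA levels do not measure TOP-dependent translation, and no ribosome profile was analysed here.

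The coefficient of variation between replicates was 5.81% under PTPF and 3.08% under STATF for the median member. The 95% interval lay within 1.2-fold in either direction for 31 of the 54 members and within 1.5-fold for 50. Over 15 other processing settings, EEF1B2, EEF1D, EIF1AX and EIF2S1 kept their calls in all, and all 11 called members kept their sign. The other 7 lost the call in at least 1 setting. With library totals EIF2S2, EIF5B, EIF3J, EIF4A3 and EIF4EBP1 were not called (adjusted p = 0.171, 0.187, 0.155, 0.162 and 0.0649). EIF2S2 and EIF5B were not called without a count filter (0.0567 and 0.0591), EIF4A3 not with limma-voom (0.0508) and EIF4EBP2 not with upper quartile scaling (0.0575). Of the uncalled members 37 were called in no setting. The remaining 6 (EIF2S3, EIF3E, EIF3G, EIF3B, EIF3M and EIF4E) were called only in some.

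**Figure D4:**
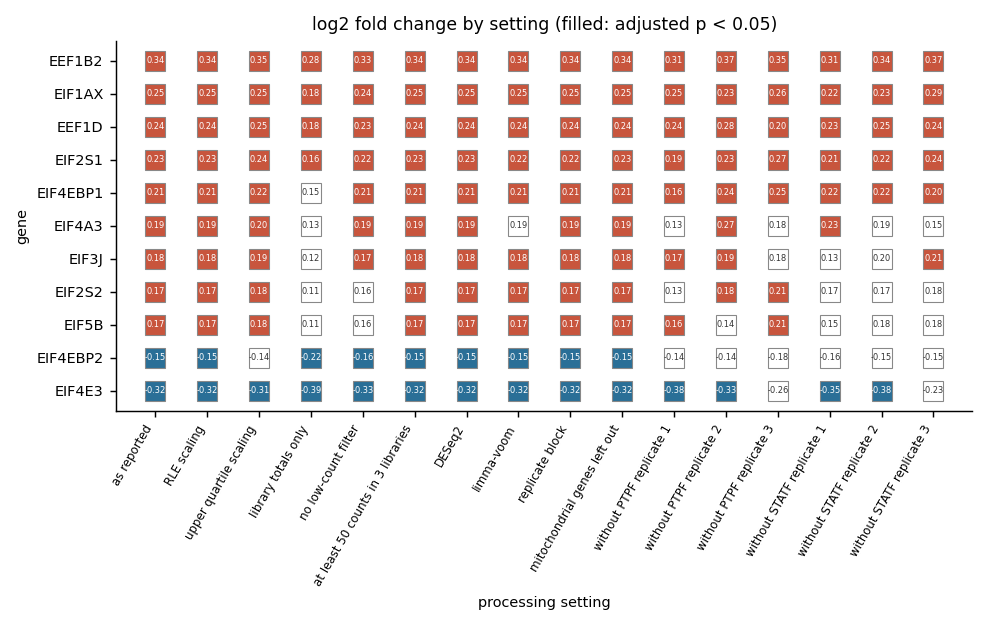
The log2 fold change of the 11 called members (rows, PTPF minus STATF) is printed under the reported settings and 15 others (columns), with filled squares where the adjusted p is under 0.05. The rows of EEF1B2, EIF1AX, EEF1D and EIF2S1 are filled throughout, and that of EIF4EBP2 is empty in all 6 columns that leave out a library.

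The genes around these factors were read from the same fit. Of 40 related genes that are no members all were tested, and 6 were higher and 2 lower (20% called, against 21.6% of all genes and 25.5% of protein-coding ones), with a median of 0.01. Among the 9 kinases and phosphatase subunits that act on eIF2, eEF2 and eIF4E, 1 was higher and 1 lower. These made 22.2%, near the 21.6% of all genes. EIF2AK2 (PKR, the double-stranded RNA sensor that phosphorylates EIF2S1) was lower, at 45.3 ± 3.63 against 60.5 ± 2.73 CPM (log2 fold change -0.42, adjusted p = 1.36e-05). EIF2AK3 (PERK, the kinase of endoplasmic reticulum stress for the same site) was higher, at 25.9 ± 2.35 against 20.5 ± 1.02 CPM (0.34, adjusted p = 0.00133). Both calls held in all 15 settings.

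In the mTORC1 pathway, 1 of 14 genes was higher and 1 lower (14.3% called, against 21.6% of all genes). DDIT4 (REDD1, a stress-induced inhibitor of mTORC1) was higher, at 153 ± 3.99 against 112 ± 6.20 CPM (0.45, adjusted p = 7.48e-07), in all 15 settings. RPTOR, the mTORC1 subunit that recruits substrates such as the 4E-BPs, was lower, at 39.8 ± 3.06 against 46.3 ± 3.39 CPM (-0.22, adjusted p = 0.0196). RPTOR was not called without PTPF replicate 1 (adjusted p = 0.0802) or STATF replicate 2 (0.180). Of the 11 genes for poly(A) binding, termination and recycling 4 (36.4%) were higher and none lower. Higher were 10.1% of all genes tested and 14.9% of protein-coding genes with a mean of at least 10 CPM. PABPC1, the main cytoplasmic poly(A)-binding protein, stood at 543 ± 8.71 against 475 ± 1.28 CPM (0.20, adjusted p = 0.0106). PABPC4 gave 0.19 (adjusted p = 0.0118), the recycling factor ABCE1 0.20 (0.0109) and MCTS1, which acts with DENR in reinitiation, 0.19 (0.0428). Each of these 4 lost its call in at least 2 of the runs that leave out a library: PABPC1 and PABPC4 without STATF replicate 2 (0.0600 and 0.0726) or 3 (0.0541 and 0.0696), and ABCE1 without STATF replicate 1 (0.0817) or 2 (0.0629). MCTS1 lost it without each library except PTPF replicate 2, with 0.140 at most. With library totals none of the 4 was called (0.0885 for ABCE1, 0.208 for MCTS1, 0.0547 for PABPC1 and 0.0790 for PABPC4), and MCTS1 was not called by DESeq2 (0.0587) or without a count filter (0.106). None of the 6 mitochondrial translation factors passed (range -0.13 to 0.17), although 3 had an unadjusted p under 0.05.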

How the data were processed

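Polyadenylated RNA of 6 HepaRG samples was sequenced. The table that the authors deposited gives whole-number counts of reads for each Ensembl gene, without normalization, and beside them the deposited gene length, another kind of value. CASAVA 1.8, HISAT2 2.0.5, featureCounts 1.5.0-p3 and the build GRCh38 are named, per the submitters' processing notes. Which annotation, strand setting and handling of multi-mapping reads they used is not given in the sources used here. All 58735 gene identifiers are in GENCODE release 29, from which exon overlaps were computed.

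Samples were grouped by title into PTPF and STATF (3 each). Genes passing filterByExpr received TMM scaling, with factors from 0.953 to 1.03, before the quasi-likelihood test of edgeR 4.0.16 (glmQLFit, robust, group only, glmQLFTest) in R 4.3.3, with Benjamini-Hochberg adjustment over all 17844 genes and a threshold of 0.05. CPM used TMM-scaled library sizes, and RPKM divided them by the deposited length. Total counts were 33225627 to 40796767, and a count of 0 allows up to 3 counts. Reads carry no stated molecular identifiers, so such floors cover counting error only. No replicate was a duplicate: chi-square values divided by their degrees of freedom were 4.30 to 12.1 between replicates.

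The members and lists were chosen with earlier results of these data known. Named were all called members, all tested EEF genes, EIF4E, EIF4G1, EIF4A1, EIF4EBP1, EIF2S1, EIF5A and EIF6, the siRNA targets, and up to 10 called pathway genes. Other members (EIF2S3, EIF3E, EIF3C and EIF3CL among them), the start-site motif and the printed windows were chosen after values or sequences were seen. Start sequences are from RefSeq (GRCh38.p14), where EIF3E, EIF3CL, EIF3L, EEF1D, EIF2S2, EIF3H, EIF3A, EIF3G, EEF1A2 and EIF4EBP1 had no entry in the table used. The motif was searched on the sense strand only: a C at the start base followed by at least 4 bases that are C or T. Alternatives were RLE, upper quartile and library total scaling, 2 other count filters, DESeq2 1.42.0, limma 3.58.1 (voom), a replicate block, mitochondrial genes left out, near-identical copies left out, and each library left out. Scripts (Python 3.11.15) were tested on simulated counts, where large changes were recovered, changes as small as those called here only in part, and some unchanged genes were called.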

Additional observations from a re-analysis of the deposited data

How the results depend on the processing

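The count of called members was 11 as reported, 11 or 12 with RLE or upper quartile scaling, 13 with DESeq2 and 11 with limma-voom. With mitochondrial genes left out the same 11 were called, and the median of all members was 0.10. The runs that leave out a library gave 6 to 14 called members, and 4 to 12 called EIF names against 9 as reported. Library totals gave 6 called members and 4 called EIF names. The medians were then 0.036 for all members, 0.021 for EIF names and 0.12 for EEF names. Leaving out near-identical copies gave an elongation median of 0.27 from fewer genes. The labels share replicate numbers, but these showed no strong pairing. Deviations of same-numbered libraries correlated at 0.088, 0.12 and -0.0023, and those of other numbers at -0.15 to 0.053. The values 0.088 and 0.12 lay above all those of other numbers, and whether the numbers mark a weak pairing was not tested. A replicate block gave 13 called members, and 4145 called genes in place of 3863. In at least 1 setting 15 members turned sign, none of them called: EEF1A2, EIF2S3B, EIF5, EIF2B1, EIF2B2, EIF2B5, EIF3F, EIF3H, EIF3K, EIF3L, EIF4G1, EIF4G3, EIF4H, EIF5A and EIF6. So did PTPRD. Over the runs that leave out a library EEF1A2 ranged from -0.096 to 0.079, EIF4G1 from -0.040 to 0.0023, EIF6 from -0.023 to 0.071 and PTPRD from -0.076 to 0.089. EEF1A2 gave 0.0071 with upper quartile scaling and 4.5e-05 with DESeq2. With library totals EIF5A gave -0.0092, EIF6 -0.036 and PTPRD -0.061. PTPRD gave -0.0058 without a count filter, -0.0038 with limma-voom and -0.0032 with the replicate block. Apart from the smaller sets, the cause of these shifts was not tested. The 3 libraries per label limit the precision of every value.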

Other observations

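Genes whose exons lie almost wholly within another annotated gene were mostly listed without a count. Of the 350 protein-coding genes with at least 99% of their exon bases shared, EEF1G among them, 264 (75.4%) held no count in any library. Among the 11097 with no shared base 1543 (13.9%) held none, and among the 7721 with some but under 50% shared 267 (3.46%). Over all 8854 genes with any shared base the share was 7.71%, below that of genes with none. The share was 19.4% (152 of 783) for genes with 50% to under 99% shared, the range in which EIF3L (51.8%) and EIF4EBP3 (73.4%) lie.

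Annotated pseudogenes of several translation factors held counts. Whether these reads came from the pseudogene or from the parent gene was not tested. The 39 annotated pseudogenes of EEF1A1 held 31406 counts, 2.51% of the counts of that gene. Those of EEF1B2 (8 genes) held 2357 counts (6.55%), those of EIF2S2 (4 genes) 1264 counts (5.93%) and those of EIF4E (5 genes) 1138 counts (15.4%). For EIF4A1 the 13 pseudogenes held 1986 counts, 218% of the 909 counts of the gene. The 8 pseudogenes of EEF1G held 195 counts while the gene itself held none.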
